A study of Mus musculus with 4 samples.

Results

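A set of genes that mark or shape interneurons of the caudal ganglionic eminence and the olfactory bulb was examined for binding of the transcription factor Sp9. They were chosen by name as a group of 10 (Nr2f1, Nr2f2, Prox1, Npas1, Htr3a, Vip, Pax6, Etv1, Tshz1 and Th), out of 21900 protein-coding genes of the mouse, and were looked up in 2 lists of Sp9 peaks. Sp9 had been immunoprecipitated with a rabbit antibody from cross-linked basal ganglia of CD1 mouse embryos of embryonic day 13.5 (E13.5, the earlier stage) or 16.5 (E16.5, the later stage), and the bound DNA was sequenced (ChIP-seq). The series' design text gives the mice as wild type and the tissue as the basal ganglionic eminence. Each stage had 1 ChIP library and 1 input library made without antibody, and a peak is a place where the authors called ChIP signal against that input, per the file names. The sources used here do not say whether embryos were pooled, and they name no sorting by cell type, so the cells in which a site was bound are not known. The lists report where Sp9 was found and no expression, so the tissue label could not be checked against marker genes.

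Sp9 is a zinc finger factor of the SP/KLF family made in the ganglionic eminences, the embryonic zones that give rise to striatal neurons and to migrating GABAergic interneurons. Factors of this family bind GC-rich sequences such as the GC box and the CACCC box. The caudal eminence is known for cortical interneurons that carry the serotonin receptor subunit Htr3a, some of which make the peptide Vip, whereas the dorsal part of the lateral eminence sends interneurons to the olfactory bulb.

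The lists gave each peak by its distance in bp, with minus for upstream, from a named gene's transcription start site (TSS) in the mm9 build of the mouse genome. They held no peak height, width, chromosome position or read total, so strength and sequencing depth were unknown. In all there were 5847 peaks at the earlier stage and 6022 at the later stage. With 1 ChIP library per stage no difference between stages had a replicate check, and none was tested. Weaker binding, under the authors' threshold, would leave no entry in these lists. The 95% Wilson intervals given below cover counting error only. Those over peaks treat each peak as independent. Peaks of 1 gene can share a side and a second gene, so these intervals may be too narrow.

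Nr2f1, Nr2f2, Npas1 and Th were the genes of the set with a peak closer than 5 kb to the TSS at either stage, and their promoters are shown for that reason. The sequences are from RefSeq on GRCm38.p6, another build than that of the peak lists. Each runs 5′ to 3′ on the gene's strand from 250 bases before the start through the first 50 bases of the transcript. Capitals mark each GC box (GGGCGG, or CCGCCC on the other strand) and each CACCC box (CACCC, or GGGTG on the other strand), which do not overlap in these windows.
Nr2f1: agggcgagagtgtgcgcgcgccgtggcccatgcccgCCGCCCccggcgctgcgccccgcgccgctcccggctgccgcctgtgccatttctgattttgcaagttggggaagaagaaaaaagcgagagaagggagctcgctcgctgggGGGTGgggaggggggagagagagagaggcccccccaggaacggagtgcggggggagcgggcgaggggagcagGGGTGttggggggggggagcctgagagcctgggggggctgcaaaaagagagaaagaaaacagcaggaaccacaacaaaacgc
Nr2f2: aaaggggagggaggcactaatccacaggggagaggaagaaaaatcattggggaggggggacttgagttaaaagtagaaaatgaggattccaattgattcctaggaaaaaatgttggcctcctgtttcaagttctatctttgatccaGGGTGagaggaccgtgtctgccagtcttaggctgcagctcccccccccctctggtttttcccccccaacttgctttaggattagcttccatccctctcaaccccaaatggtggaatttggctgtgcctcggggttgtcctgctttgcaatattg
Npas1: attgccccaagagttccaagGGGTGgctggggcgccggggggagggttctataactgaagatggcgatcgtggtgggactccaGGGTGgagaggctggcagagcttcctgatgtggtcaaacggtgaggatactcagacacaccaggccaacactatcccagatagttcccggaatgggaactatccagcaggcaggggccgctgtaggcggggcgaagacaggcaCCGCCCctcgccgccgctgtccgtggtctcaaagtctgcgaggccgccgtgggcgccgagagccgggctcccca
Th: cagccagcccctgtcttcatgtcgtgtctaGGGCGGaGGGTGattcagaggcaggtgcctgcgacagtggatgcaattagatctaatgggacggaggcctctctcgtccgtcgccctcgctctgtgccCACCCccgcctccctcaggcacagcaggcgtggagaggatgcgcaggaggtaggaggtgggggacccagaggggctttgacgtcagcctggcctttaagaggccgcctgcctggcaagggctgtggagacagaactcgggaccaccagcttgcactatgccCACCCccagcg

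The windows lie at chr13:78198824-78199123 for Nr2f1, chr7:70366697-70366996 for Nr2f2, chr7:16476731-16477030 for Npas1 and chr7:142899946-142900245 for Th, all on the minus strand. Nr2f1 has 1 GC box and 2 CACCC boxes in its window, Npas1 has 1 and 2, and Th has 1 and 3. The Nr2f2 window has 0 GC boxes and 1 CACCC box, and 49.7% of its bases are G or C, against 68% at Nr2f1 and 64.3% at both Npas1 and Th. Of 21263 windows of protein-coding genes in the table, 46.2% hold a GC box and 59.5% hold a CACCC box, so these letters are common. By the authors' distances, the peaks of all these genes lay farther from the TSS than the windows reach. The table holds another Nr2f1 start farther inside the gene, and which start the authors used was not known. The table holds windows for 8 of the 10 genes, and Htr3a and Tshz1 are named only. Prox1, which had no peak near its promoter, has 2 GC boxes and 3 CACCC boxes in the window of its outermost start, at chr1:190170778-190171077.

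Sp9 peaks were assigned to 9 of the 10 genes at the earlier stage and to the same 9 at the later stage. The exception was Vip, which was in neither list. Across all protein-coding genes, 20.7% had an assigned peak at E13.5, 23.6% at E16.5 and 16.3% at both. A gene's domain could reach 1000000 bp, so far assignments favour genes in gene-poor regions, and these shares are not matched for that. From 5 kb upstream to 1 kb downstream of the TSS, 1 of 10 genes had a peak at E13.5 (5.51% of all protein-coding genes). At E16.5, 3 of 10 did (10.2%). The 9 genes held 33 peaks at the earlier stage and 25 at the later stage, and no peak belonged to more than 1 of them. Counts ran from 1 to 11 per gene at the earlier stage and from 1 to 8 at the later stage. Etv1 and Prox1 together held 19 of the 33 peaks (57.6%) and 13 of the 25 (52%), so sums over the set lean on these genes. The median was 2 peaks per listed gene at the earlier stage and 1 at the later stage, beside 1 and 1 over all listed genes.

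**Figure D1:**
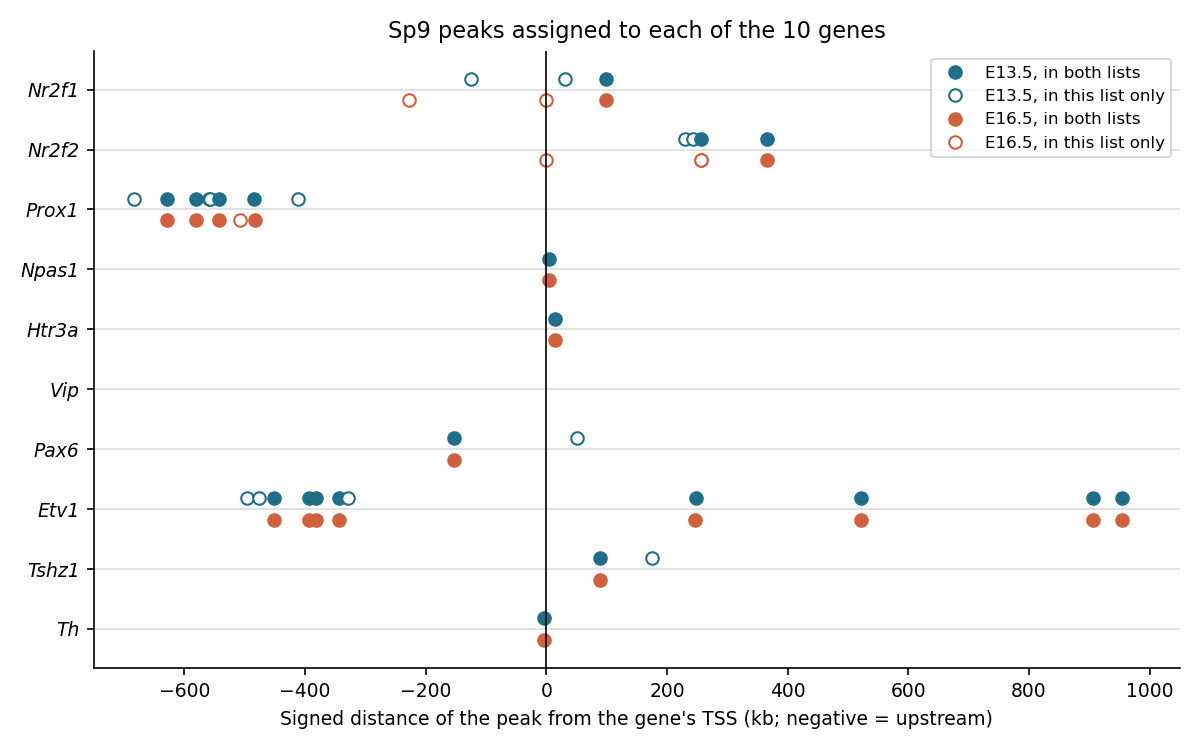
Each point is a peak, placed by its signed distance in kb from the TSS of the gene in that row (negative is upstream), with E13.5 above and E16.5 below the line. Filled points are in both lists within 200 bp, and open points are in that list only; Prox1 peaks at 557731 and 559138 bp and Nr2f2 peaks at 255890 and 256519 bp overlap at this scale. Prox1 peaks lie upstream only, Etv1 peaks on both sides, and Vip has none.

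Most of these peaks were far from the genes they were assigned to. The median distance was 366 kb at the earlier stage and 344 kb at the later stage, against 132 and 80.3 kb over all assignments in the lists. Without Prox1 and Etv1 it was 112 and 94.3 kb. At E13.5, 29 of 33 peaks (87.9%, 72.7 to 95.2) lay beyond 50 kb, and at E16.5, 20 of 25 (80%, 60.9 to 91.1), beside 69.7% and 57.8% over all assignments. Without Prox1 and Etv1 these shares were 71.4% (10 of 14) and 58.3% (7 of 12), close to the background. Counted by gene, 4 of the 10 had a peak within 50 kb at E13.5 (Nr2f1, Npas1, Htr3a and Th; 10.8% of all protein-coding genes did) and 5 at E16.5, when Nr2f2 was added (15.1%). Pax6 just missed this window at E13.5, with a peak at 50470 bp. Within 1 kb of the TSS, here called the promoter, the count was 0 of 10 at E13.5 (4.93% of all genes) and 1 of 10 at E16.5 (9.42%), the latter being Nr2f1.

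Peaks of the same gene whose TSS distances differed by at most 200 bp between the lists are called recurring. Every one of the 9 genes had at least 1 recurring peak, and 14.7% of all protein-coding genes did. Most genes in both lists had one, since 3575 protein-coding genes had an assigned peak at both stages and 3220 had a recurring peak. Recurring peaks made up 20 of 33 at E13.5 (60.6%, 43.7 to 75.3), close to the 57.9% of all E13.5 peaks. At E16.5 they made up 20 of 25 (80%, 60.9 to 91.1), beside 56.2% of all E16.5 peaks. Among peaks farther than 1 kb from every assigned TSS, 20 of 33 of the set recurred at E13.5, beside 56.8% of all such peaks. At E16.5, 20 of 24 did (83.3%, 64.1 to 93.3), beside 66.6%. Outside Prox1 and Etv1, 8 of 14 peaks (57.1%) and 8 of 12 (66.7%) recurred.

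**Figure D2:**
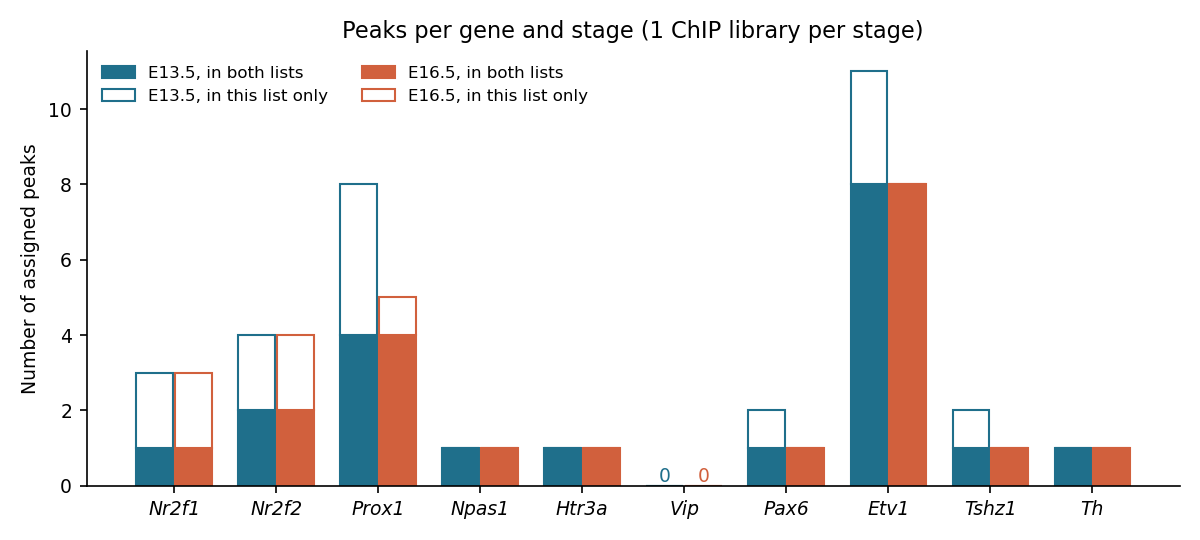
Bars give the number of assigned peaks (vertical axis) for each gene at E13.5 and E16.5, split into peaks in both lists (filled) and in that list only (open). All 8 Etv1 peaks of E16.5 were also in the E13.5 list, and Vip had 0 peaks at both stages.

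The COUP-TF orphan nuclear receptors Nr2f1 and Nr2f2, both strongly made in the caudal eminence, had peaks near the TSS in the later list and none there in the earlier one. Peaks between 5 kb upstream and 1 kb downstream of the TSS were also commoner later over all protein-coding genes (5.51%, then 10.2%). Nr2f1 had 3 peaks at each stage. In the E13.5 list 1 was upstream, at 125129 bp, and 2 were downstream, at 31432 and 99585 bp. Later 2 were upstream, at 227904 and 871 bp, and 1 was downstream, at 99498 bp. Only the peak near 99.6 kb was in both lists, and it was also assigned to the POU-domain gene Pou5f2, whose TSS was nearer, at 77259 bp. The peak 871 bp upstream was the only promoter peak of the set at either stage.

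Nr2f2, which promotes the caudal migration of these interneurons, had 4 peaks at each stage, all assigned to it alone. At E13.5 all 4 were downstream, at 230517, 242392, 255906 and 365610 bp. At E16.5 there were peaks 255890, 256519 and 365507 bp downstream and 1 peak 1259 bp upstream of the TSS. The peaks near 255.9 and 365.6 kb were thus in both lists. The peaks at 230517 and 242392 bp were in the E13.5 list only, and those at 256519 bp downstream and 1259 bp upstream in the E16.5 list only. As many peaks or more were assigned to 13.6% of listed genes at the earlier stage and 9.61% at the later stage.

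Prox1 encodes a homeodomain factor that caudal-eminence interneurons need for migration and maturation. It had 8 peaks at E13.5, all upstream, at 683142, 628212, 581327, 559138, 557731, 543206, 483785 and 410953 bp. At E16.5 it had 5, at 628151, 581275, 543198, 507571 and 483754 bp upstream. Peaks near 628.2, 581.3, 543.2 and 483.8 kb were in both lists. The other 4 E13.5 peaks and the E16.5 peak at 507571 bp were in 1 list only. Only 2.82% of listed genes had as many peaks or more in the earlier list, and 5.88% in the later one.

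The Prox1 peaks were all shared with Rps6kc1, a ribosomal protein S6 kinase-like gene whose TSS lies 741090 bp from that of Prox1 by the listed distances. Every one was nearer to Rps6kc1, whose TSS was 57948 to 330137 bp away in the earlier list and 112939 to 257336 bp away in the later one. Rps6kc1 had no other peak in either list. When each peak was given only to the nearest TSS among its assigned genes, Prox1 had 0 peaks at both stages. Which of the genes, if either, these sites act on was not tested.

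Npas1, a bHLH-PAS transcription factor of migrating interneurons and their progenitors, had 1 peak at each stage. It lay 4422 bp downstream of the TSS at the earlier stage and 4430 bp at the later stage, a difference of 8 bp. The peak was also assigned to Tmem160, a transmembrane protein gene, at 19579 and 19571 bp. Htr3a, the ionotropic serotonin receptor subunit that labels caudal-eminence interneurons, likewise had 1 peak at each stage, 15059 and 15028 bp downstream. Its second gene was Zbtb16, a zinc finger gene, at 60095 and 60126 bp upstream of that TSS. Both genes therefore had the same single site in both lists, and for both it was nearer than the TSS of the second gene. Having exactly 1 peak at each stage was common: 1608 other genes shared that count with Npas1, Htr3a and Th.

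Vip, the neuropeptide of a group of cortical interneurons from the caudal eminence, was in neither list. The lists name only genes with a peak, so whether Vip was among the genes to which peaks could be assigned was not known.

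**Figure D3:**
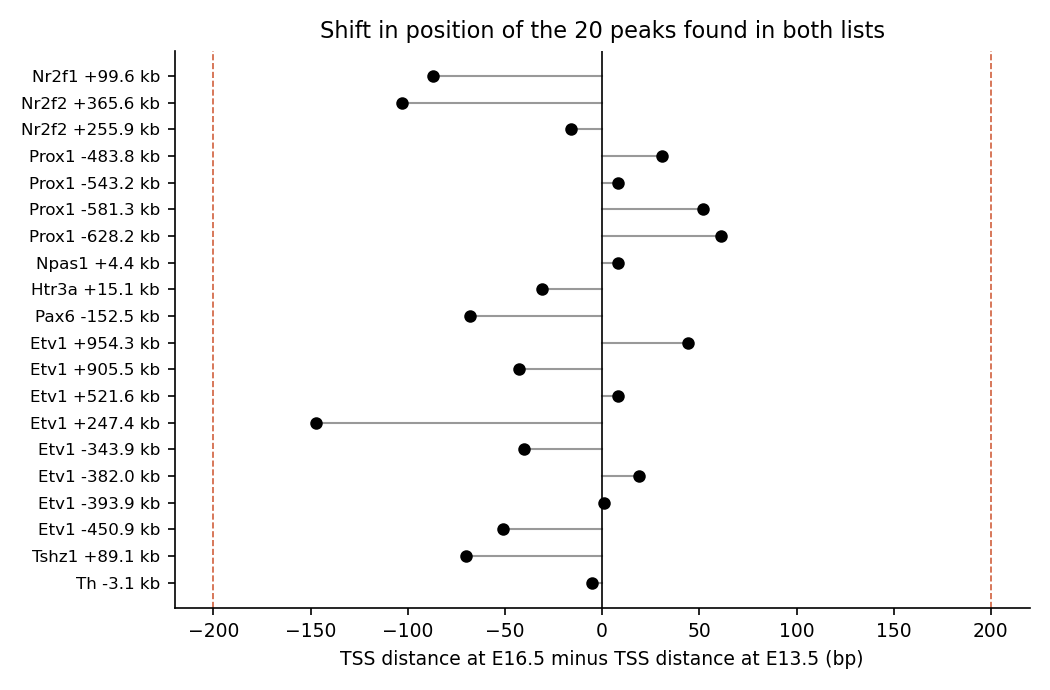
Each point is 1 of the 20 peaks found in both lists, labelled by gene and E13.5 distance; the horizontal axis is the TSS distance at E16.5 minus that at E13.5 in bp, and dashed lines mark the 200 bp limit. All points lie between -147 and 61 bp, and 18 of 20 lie within 100 bp of 0.

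The genes of the dorsal lateral eminence and olfactory bulb were led by Etv1. Etv1 encodes an ETS factor, also called Er81, of olfactory bulb progenitors and interneurons. At E13.5 it had 11 peaks, of which 7 lay upstream, at 496467, 476059, 450918, 393933, 381970, 343872 and 329582 bp. The other 4 lay downstream, at 247353, 521552, 905550 and 954336 bp. At E16.5 it had 8 peaks: 450969, 393932, 381951 and 343912 bp upstream, and 247206, 521560, 905507 and 954380 bp downstream. Every E16.5 peak of Etv1 was in the E13.5 list, and the 3 peaks at 496467, 476059 and 329582 bp upstream were in the E13.5 list only. The pair near 393.9 kb differed by 1 bp and the pair near 247 kb by 147 bp, the smallest and largest differences of the set. Of all listed genes, 0.995% had as many peaks or more at the earlier stage and 1.7% at the later stage, and 1 other gene had 11 and 8.

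The upstream peaks of Etv1 were all shared with Dgkb, which encodes a diacylglycerol kinase of striatal neurons, and 3 of its downstream peaks with Arl4a, a small GTPase gene. The peaks at 496467, 476059 and 450918 bp upstream were nearer to Dgkb, the last only slightly, at 448459 bp. The peaks at 905550 and 954336 bp downstream were nearer to Arl4a, at 351797 and 303011 bp. Among the assigned genes, the Etv1 TSS was thus the nearest for 6 of 11 peaks at the earlier stage and for 5 of 8 at the later stage. The peak near 247 kb downstream was assigned to Etv1 alone in both lists.

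Pax6, a paired-domain and homeodomain factor needed for dopaminergic periglomerular interneurons of the olfactory bulb, had 2 peaks at the earlier stage and 1 at the later stage. An upstream peak was in both lists, at 152501 and then 152569 bp. It was also assigned to Rcn1, a reticulocalbin gene, and was nearer to it, at 117076 and 117008 bp. The other peak lay 50470 bp downstream and was listed at E13.5 only. Its second gene was Elp4, which encodes an Elongator subunit and is known to carry long-range Pax6 enhancers in its introns. The Elp4 TSS was 185198 bp away, and whether the peak fell in an Elp4 intron was not determined, since the lists give no coordinates.

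Tshz1, a zinc finger factor that olfactory bulb interneurons need to migrate radially in the bulb, had 2 peaks at the earlier stage and 1 at the later stage. The peak 89105 bp downstream at E13.5 recurred at 89035 bp, and it was assigned to Tshz1 alone in both lists. The peak 175562 bp downstream was in the E13.5 list only. It was also given to Zfp516, a zinc finger gene, at 999963 bp, which is just inside the 1000000 bp limit of the assignment.

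Th encodes tyrosine hydroxylase, the rate-limiting enzyme of dopamine synthesis and the marker of dopaminergic interneurons of the olfactory bulb. It had 1 peak at each stage, 3140 bp upstream at the earlier stage and 3145 bp upstream at the later stage, a difference of 5 bp. No other gene shared it. Th was the only gene of the set with a peak between 5 kb upstream and 1 kb downstream of its TSS at E13.5 (1 of 10; 5.51% of all protein-coding genes). At E16.5, Nr2f1 and Nr2f2 joined it (3 of 10; 10.2% of all).

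The 20 recurring pairs differed in TSS distance by 1 to 147 bp, with a median of 41.5 bp, beside a median of 38 bp over all 3383 recurring peaks. The 18 peaks without a partner were well separated from these, the closest being the Nr2f2 peak at 256519 bp, 613 bp from an E13.5 peak. Of the recurring peaks 10 were upstream and 10 downstream, and 17 of 20 lay beyond 50 kb. Prox1 and Etv1 held 12 of the 20, and of the other 8, 2 were upstream and 6 downstream, with 5 beyond 50 kb. Of the 13 peaks in the E13.5 list only, 8 were upstream, and the nearest lay 31432 bp from the TSS. Of the 5 peaks in the E16.5 list only, 4 were upstream, and 2 lay within 2.5 kb of the TSS, those of Nr2f1 and Nr2f2. The upstream share of all peaks of the set was 54.5% (38 to 70.2) at the earlier stage and 56% (37.1 to 73.3) at the later stage, beside 46.9% and 48.9% over all assignments. Without Prox1 and Etv1, 3 of 14 (21.4%, 7.57 to 47.6) and 5 of 12 (41.7%, 19.3 to 68) were upstream. All these intervals include the share over all assignments at their stage, so no difference in side is shown.

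**Figure D4:**
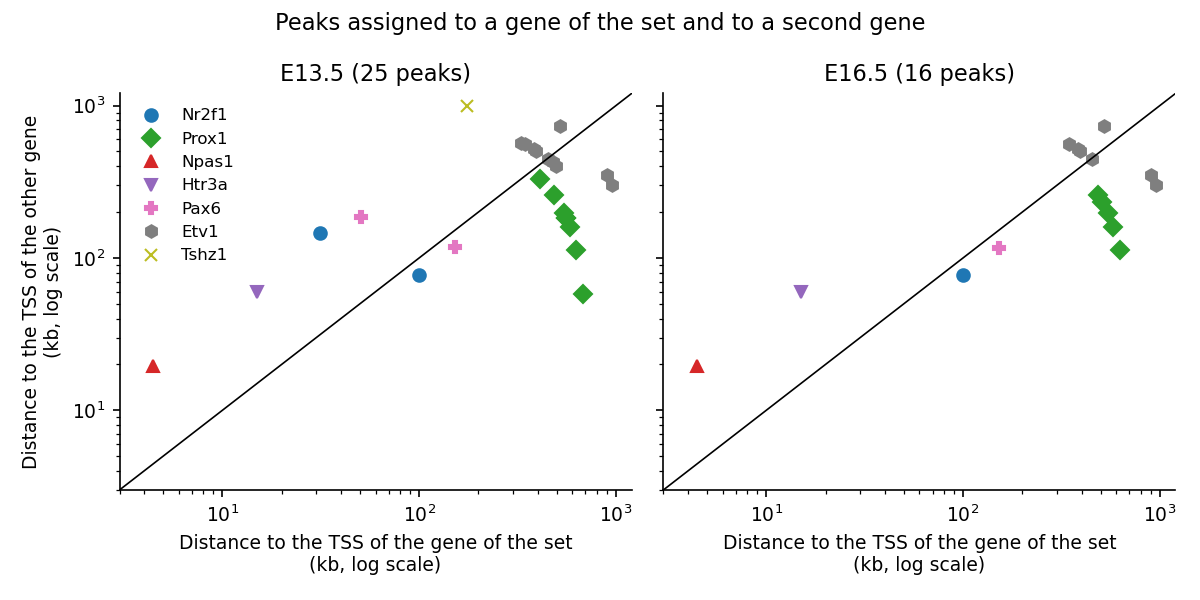
Peaks assigned to a gene of the set and to a second gene (25 at the earlier stage and 16 at the later stage), by the distance to each TSS in kb on log axes; symbols give the gene of the set. Points under the diagonal are nearer to the second gene, as all Prox1 peaks are, while the Npas1 and Htr3a peaks lie above it at both stages.

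How often a peak was shared with a second gene depended on Prox1 and Etv1. At E13.5, 8 of 33 peaks (24.2%) were assigned to 1 gene alone, and later 9 of 25 (36%), beside 30.3% and 38.5% of all peaks. Prox1 and Etv1 were also left out, a choice made after seeing the data. Then 7 of 14 (50%, 26.8 to 73.2) and 8 of 12 (66.7%, 39.1 to 86.2) were assigned to 1 gene alone. Prox1 had 0 such peaks and Etv1 had 1 at each stage, so leaving them out had to raise these shares. No genes were left out of the shares over all peaks. The nearest TSS here is the nearest among the genes a peak was assigned to, so a peak assigned to 1 gene alone always counts. The gene of the set had the nearest TSS for 18 of 33 assignments (54.5%, 38 to 70.2) and 15 of 25 (60%, 40.7 to 76.6), beside 58.7% and 61.8% over all assignments. Without Prox1 and Etv1 it had the nearest TSS for 12 of 14 (85.7%, 60.1 to 96) and 10 of 12 (83.3%, 55.2 to 95.3). At E16.5 this interval includes 61.8%, the share over all assignments. Prox1 had the nearest TSS for 0 of its peaks, so leaving it out had to raise these shares. Neighbouring peaks of the same gene were a median of 51.9 kb apart at the earlier stage and 53 kb at the later stage, against 72 and 69.8 kb over all listed genes. Most of these spacings were at Prox1 and Etv1, and the other genes' medians were wider than the background, at 86.5 kb (7 spacings) and 109 kb (5 spacings). The closest neighbours were the Prox1 peaks at 559138 and 557731 bp, 1407 bp apart at E13.5, and the Nr2f2 peaks at 255890 and 256519 bp, 629 bp apart at E16.5.

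Other genes of these lineages were read from 3 lists. In a list of 14 further caudal-eminence interneuron genes, 7 had an assigned peak at each stage (50%, 26.8 to 73.2). Among all protein-coding genes 20.7% did at E13.5 and 23.6% at E16.5. Of the list, 6 genes had a recurring peak (14.7% of all protein-coding genes did). Within 50 kb there were 2 genes at each stage (14.3%), close to the 10.8% and 15.1% of all protein-coding genes. Reln, which encodes the secreted glycoprotein reelin, had peaks 143185 bp upstream and 61974 bp downstream at E13.5 that recurred at 143139 and 61965 bp, and a promoter peak 29 bp upstream at E16.5 only. Synpr, a synaptic vesicle protein gene, had a peak 5684 bp downstream at E13.5 only. Its peaks 124704 and 367282 bp downstream recurred. Sp8, the close paralogue of Sp9, was the third gene with a peak within 50 kb, at 9455 bp at the earlier stage and 9442 bp at the later stage.

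In a list of 25 genes of the dorsal lateral eminence and olfactory bulb lineage, 19 had an assigned peak at E13.5 (76%, 56.6 to 88.5) and 20 at E16.5 (80%, 60.9 to 91.1). Over all protein-coding genes these shares were 20.7% and 23.6%. Within 50 kb there were 13 and 12, beside 10.8% and 15.1% of all protein-coding genes, and at promoters 6 and 5, beside 4.93% and 9.42%. The homeobox genes Dlx1, Dlx2, Dlx5 and Dlx6 of GABAergic neurons and the TALE homeobox genes Meis2 and Pbx3 had the most peaks within 50 kb. By their distances, Dlx1 and Dlx2 had peaks in common, as did Dlx5 and Dlx6, so some peaks count for both genes of a pair. Meis2 had 4 and 3, and Pbx3 had 3 and 2. Ddc, the enzyme that follows Th in dopamine synthesis, had 0 peaks at both stages; it was singled out after its value was seen.

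Of 21 paralogues and partners of the set, 10 had an assigned peak at the earlier stage and 11 at the later stage. These are 47.6% and 52.4%, beside 20.7% and 23.6% of all protein-coding genes. Within 50 kb there were 3 and 5 (14.3% and 23.8%, beside 10.8% and 15.1% of all protein-coding genes). Tshz3, a paralogue of Tshz1, had 11 peaks at the earlier stage and 9 at the later stage, including a promoter peak 281 bp upstream at E16.5 only and a recurring peak 44190 bp downstream (44135 bp at E16.5). Htr3b, the gene next to Htr3a and its partner subunit, had its own peak 7608 bp upstream at the earlier stage and 7522 bp at the later stage, a different peak from that of Htr3a. Etv5, a paralogue of Etv1, had peaks 10687 and 49971 bp downstream at E13.5, of which the second recurred at 49951 bp. Tshz2 had a peak 27159 bp downstream and Pax2 one 16019 bp upstream, both at E16.5 only. The Vip receptor genes Vipr1 and Vipr2 had 0 peaks at both stages, as did Vip itself; they were singled out after their values were seen.

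**Figure D5:**
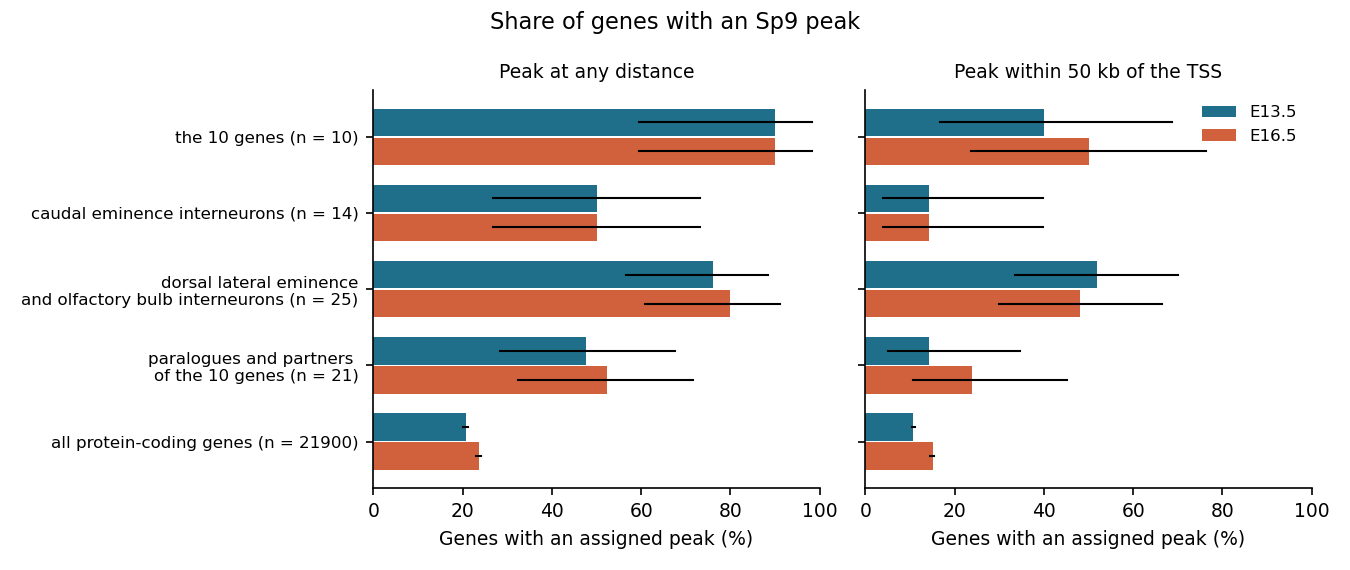
Horizontal bars give the percentage of genes with an assigned peak at any distance (left) and within 50 kb of the TSS (right) in the set of 10, in 3 further lists and in all 21900 protein-coding genes; black lines are 95% Wilson intervals. The set stands at 90% at any distance at both stages and at 40% and 50% within 50 kb, beside 20.7% and 23.6%, and 10.8% and 15.1%, of all genes. Far assignments favour genes in gene-poor regions, and the lists were not matched for this.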

How the data were processed

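Sp9 ChIP and input libraries were made from basal ganglia at 2 stages (4 libraries, 1 of each kind per stage). The submitters' processing notes name MACS2 2.1.0, BWA 0.6.2, bcl2fastq 1.8.4 and CASAVA 1.8.2, in no stated role, with mm9 as the build. The sources used here do not state the peak threshold. The authors deposited 1 peak list per stage, ChIP against input per the file names, as text of no standard unit: numbered peaks per gene with the signed TSS distance. Per the file headers, a gene's domain held 5000 bp before and 1000 bp after its TSS, could grow to 1000000 bp, and was in some cases curated. Far assignments therefore favour genes in gene-poor regions.

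Lettered entries of 1 peak number were counted once. Names were matched to a RefSeq table (GRCm38.p6, for names and neighbours only): 4698 of 4826 at the earlier stage and 5330 of 5463 at the later stage. The background was its 21900 protein-coding genes. The matching of peaks by TSS distance (200 bp) was checked on simulated lists. The simulated shifts did not cover gaps near this limit, so the check does not bear on the choice of 200 bp. The 10 genes, the 3 further lists, the windows and the measures were chosen with earlier results of these data known. The rule for names was all 10 genes with every peak, the second genes of those peaks, and up to 6 genes of each list with the most peaks within 50 kb. No statistical test of genes or stages was run, because each stage has 1 library. Alternatives were other match limits, windows, promoter widths, lettered entries, the nearest TSS only and, chosen after seeing the data, leaving out Prox1 and Etv1. Software was matplotlib 3.10.9, numpy 2.4.6 and scipy 1.17.1 under Python 3.11.15.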

Additional observations from a re-analysis of the deposited data

How the results depend on the processing

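Of 24 alternatives planned and run, 17 left the count within 1.5 times its reported value and 7 did not. With only the domain from 5 kb upstream to 1 kb downstream, the genes with a peak were 1 at the earlier stage and 3 at the later stage. Giving each peak to the nearest TSS among its assigned genes left 18 peaks at the earlier stage and 15 at the later stage. A window of 10 kb in place of 50 kb held 2 genes at E13.5. At E16.5, promoters within 500 bp gave 0 genes and promoters within 2.5 kb gave 2. The first of these restricts the distance, the second changes which gene a peak counts for, and the others change a distance limit. Limits for recurrence of 100 bp, 500 bp and 1 kb gave 18 to 21 peaks. Leaving out Prox1 and Etv1, chosen after seeing the data, moved several values to the other side of those over all peaks. The left-out genes were picked with their values known, so these shifts are no finding about the other genes. With 1 library per stage, no peak heights and no read totals, presence in 1 list only does not show that Sp9 was absent from the site at the other stage. No replicate could be left out, and a stricter peak threshold and interval overlap need values that the lists do not hold.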

Other observations

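The surroundings of the genes differed in how many peaks they held. For each gene the 3 protein-coding neighbours on either side were taken from the RefSeq table, by order only. Around Vip, 5 of 6 neighbours had no peak at either stage, Myct1, Syne1 and Esr1 among them, and Fbxo5 had 1 peak at E13.5. Around Th, 6 of 6 had none, including Ins2, Igf2 and Ascl2. Such neighbours are common, since most protein-coding genes had no peak: 20.7% had one in the earlier list and 23.6% in the later one. Whether the counts around Vip and Th are unusual was not tested. Around Nr2f1, 5 of 6 neighbours had a peak at the earlier stage and 4 at the later stage. Around Nr2f2, Arrdc4, an arrestin-domain gene, had 6 peaks at the earlier stage and 4 at the later stage, and Mctp2, a C2-domain gene, had 9 and 5. Around Tshz1, its neighbour Zadh2 had 5 peaks at both stages. Peaks of neighbouring genes can be the same peaks, so these counts are not to be added. These neighbours were chosen after the peak lists were seen.

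The peak numbers of each gene with several peaks formed a series with no number skipped in either list, from 426 to 433 for Prox1 and from 1090 to 1100 for Etv1 in the E13.5 list. The numbers ran in order of distance, and a gene's domain is a stretch around its TSS. An unbroken series therefore follows from the format of the lists and is no property of these genes.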
